A study of Mus musculus with 9 samples.

Results

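The genes described here are 9 transcription factor genes that regulate the formation and the maintenance of fat cells: Pparg, Cebpa, Cebpb, Ebf1, Ebf2, Klf15, Zfp423, Nr1h3 and Rxra. They were taken by name as known regulators, and all 9 were found among the 32285 genes of the count matrices. Their RNA was counted by single-nucleus RNA sequencing in nuclei from frozen epididymal adipose tissue (epiAT), the gonadal fat depot of mice. The study asked whether fat tissue keeps a transcriptional trace of obesity after weight loss, and it sequenced 9 libraries from C57BL/6J mice fed chow or a high-fat diet (HFD), 1 library per group with 5 mice pooled in each.

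The groups were named by their diets in order. C, CC and CCC stayed on chow to 18, 26 and 39 weeks of age. By the paper, C was on a low-fat chow, and CC, CCC, HC and HHC ended on a standard chow. H mice were 18 weeks old and had 12 weeks of HFD, and HH mice were 31 weeks old and had 25 weeks of HFD. HC mice lost weight on 8 weeks of chow after 12 weeks of HFD and were 26 weeks old, and HHC mice did so for 8 weeks after 25 weeks of HFD and were 39 weeks old. CCH and HCH mice were 30 weeks old and both ended with 4 weeks of HFD, CCH after 26 weeks of chow and HCH after 12 weeks of HFD and 8 weeks of chow. Because each group is 1 library there is no replicate, no difference below has a test, and the 95% intervals given are exact Poisson or conditional intervals that cover counting error only.

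Fat cell formation runs as a cascade of transcription factors. C/EBPβ acts early and switches on Pparg and Cebpa, whose products PPARγ and C/EBPα then maintain each other and the genes of the mature adipocyte, such as those for lipid storage and adiponectin. PPARγ binds DNA as a heterodimer with RXRα, which is also the partner of LXRα, the oxysterol receptor encoded by Nr1h3. EBF1, EBF2 and ZFP423 act in progenitors and mark commitment to the fat lineage, and KLF15 promotes late differentiation and metabolic gene expression.

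The libraries held between 22599619 (CCC) and 66615262 (HHC) unique molecular identifiers (UMIs, each standing for 1 captured RNA molecule). Of 91687 barcodes 73215 were kept, and 50736 were assigned to 1 of 12 cell classes by marker genes, none of them a member. No pair of libraries shared more than 0.493% of the smaller library's barcodes. In 11 of the 12 classes every marker was at least 2-fold above the mean of the other classes, and 7 of 8 were for dendritic cells. Nuclei were assigned by these same markers, so this describes the classes and is not a separate check of them. Levels are in CPM, the UMIs of a gene per 1000000 UMIs of all genes in the class, and are shown for a class with at least 50 nuclei in a library. Adipocyte-gated nuclei numbered 2349 in C, 171 in H, 400 in HH, 623 in CCH and 285 in HCH, and 1165 in CC, 1202 in CCC, 811 in HC and 298 in HHC. RNA freed from adipocytes was found in the other classes, and most in CC: the summed level of the 12 adipocyte markers in macrophage-gated nuclei ran from 376 CPM in H to 3174 in CC, beside 14616 in the adipocyte-gated nuclei of CC. For each class, the level of a member expected from such RNA was computed from those markers and is called the adipocyte-derived estimate.

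The libraries' labels carry 1 of 2 prefixes whose meaning they do not give, S019 on CC, CCC, HC and HHC and S075 on C, H, HH, CCH and HCH. H against C and HCH against CCH compare libraries within S075, HC against CC and HHC against CCC do so within S019, and HH against CC crosses the sets and differs in age. The chow of CC also differs from that of C. HC against CC and HH against CC share their control library.

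The members differ in gene structure, and reads over introns were counted as well as those over exons. On the GRCm38 assembly, Ebf1 (chr11:44617317-45008091) spans 391 kb, Zfp423 (chr8:87661810-87959595, minus strand) 298 kb, Ebf2 (chr14:67233292-67430918) 198 kb, Pparg (chr6:115360951-115490399) 129 kb and Rxra (chr2:27676440-27762957) 86.5 kb. Nr1h3 (chr2:91184061-91202834, minus strand) spans 18.8 kb and Klf15 (chr6:90462576-90475238) 12.7 kb. Cebpa (chr7:35119293-35121928, 2636 bases) and Cebpb (chr2:167688915-167690418, 1504 bases) each consist of 1 exon with no intron.

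The promoters of these 2 single-exon genes are shown because their levels moved together across the libraries below. Each RefSeq window (GRCm38.p6, plus strand) runs from 250 bases before the annotated start to 50 bases after it, at chr2:167688665-167688964 for Cebpb and chr7:35119043-35119342 for Cebpa, and capitals mark TATAAA and, in Cebpb, a CCCNNGGG match of the EBF motif.
Cebpb: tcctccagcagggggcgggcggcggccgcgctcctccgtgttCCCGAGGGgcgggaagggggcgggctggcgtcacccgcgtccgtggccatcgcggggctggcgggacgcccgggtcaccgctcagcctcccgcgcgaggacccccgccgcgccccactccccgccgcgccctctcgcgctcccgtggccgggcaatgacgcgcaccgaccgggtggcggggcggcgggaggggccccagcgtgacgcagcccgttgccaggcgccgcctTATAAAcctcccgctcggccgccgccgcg
Cebpa: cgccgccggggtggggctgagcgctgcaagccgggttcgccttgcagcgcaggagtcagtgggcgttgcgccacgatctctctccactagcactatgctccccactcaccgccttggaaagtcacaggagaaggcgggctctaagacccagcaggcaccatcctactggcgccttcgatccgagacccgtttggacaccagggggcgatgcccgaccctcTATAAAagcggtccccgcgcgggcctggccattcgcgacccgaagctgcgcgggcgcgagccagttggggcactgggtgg
TATAAA begins at base -30 from the start in Cebpa and at base +21 in Cebpb, and the EBF motif begins at base -208 in Cebpb. Of the 9 members 8 had a window in the RefSeq table, 14 windows in all, and Ebf2 had none. Both strands were searched. TATAAA was found for 3 members, Cebpa, Cebpb and Pparg (on the minus strand), and in 13.6% of all 32851 promoter windows. The EBF motif was found for 2 members, Cebpb and Zfp423, and in 13.7% of windows, and the C/EBP motif TTGNGNAA was found for 1, Zfp423, and in 13.3%. The KLF motif GGGNGGGG, left in lower case above, was found for 7 members and in 33.2% of windows. Since some members have more than 1 window, the count to set beside these percentages is that of windows: of the 14, KLF was in 9, TATAAA in 3, EBF in 2 and C/EBP in 2. The 2 windows of Nr1h3 overlap and share the same KLF match, which is counted in both. The PPAR-RXR repeat AGGNCANAGGNCA and the LXR-RXR repeat AGGNCANNNNAGGNCA were found for 0 of the 8 members and in 0.381% and 0.253% of windows. These matches describe letters in a window and are not shown to be sites.

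Across cell classes the members fell into several patterns. The median level over libraries was highest in adipocyte-gated nuclei for 5 of the 9 members, Pparg, Cebpa, Klf15, Nr1h3 and Rxra. Each median covers the libraries with at least 50 nuclei of the class, 9 for adipocytes, progenitors, macrophages and endothelial nuclei and 3 to 6 for the other classes. With each class set beside adipocytes of the same libraries, a comparison chosen after seeing the data, the count was 6, as Cebpb joined. Klf15 had a median of 46.1 CPM in adipocytes (range 28.9 to 61.9), and its range did not overlap that of the next class, lymphatic endothelial (6.34 to 12.4). Pparg had a median of 2917 CPM in adipocytes, 1089 in endothelial nuclei, where it serves fatty acid transport, and 420.5 in macrophages, with ranges that overlapped between neighbours. In endothelial nuclei the level beyond the adipocyte-derived estimate was above 0 in all 9 libraries, 167 to 1068 CPM. Cebpa had a median of 58.6 in adipocytes and 21.9 in macrophages, and Nr1h3 one of 68.4 in adipocytes and 57.1 in lymphatic endothelial nuclei, both with overlapping ranges. Rxra had nearly the same median in adipocytes (33.1) and macrophages (32.6).

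**Figure D1:**
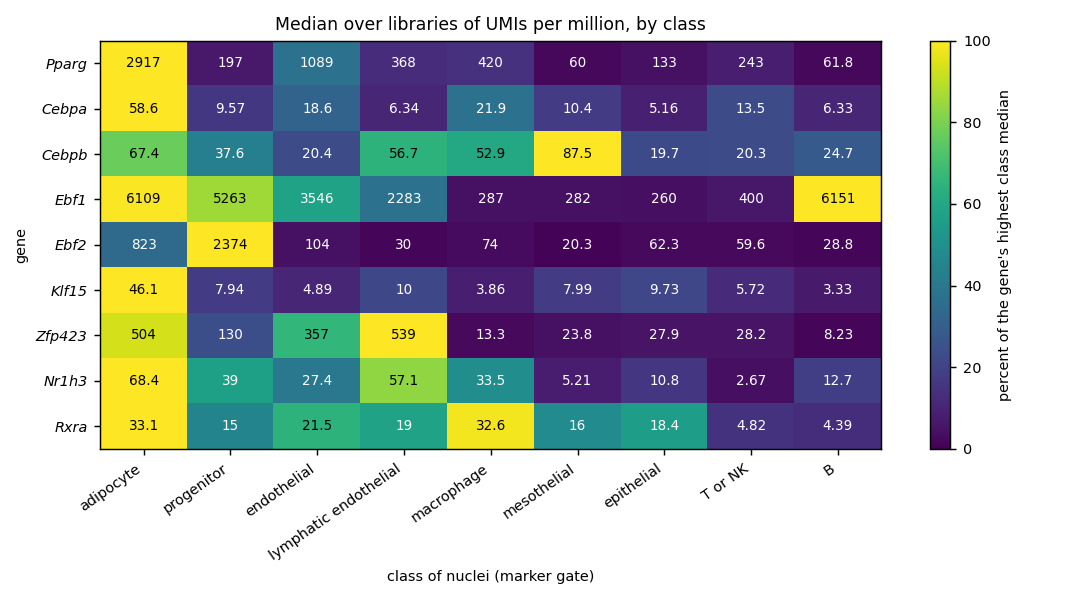
Median over libraries of the level of each gene (rows, CPM, printed in each cell) in 9 classes of nuclei (columns), coloured as a percent of the gene's highest class median. Ebf2 is highest in progenitors (2374) and Klf15 in adipocytes (46.1), while Ebf1 is close in B cells (6151) and adipocytes (6109).

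The commitment factors Ebf1, Ebf2 and Zfp423 were abundant in other classes too. Ebf2 was highest in progenitor-gated nuclei at a median of 2374 CPM (range 1929 to 3351), above adipocytes at 823 (425 to 1113) with no overlap. Ebf1, which is also required for B cell development, had medians of 6151 in B cells, 6109 in adipocytes, 5263 in progenitors and 3546 in endothelial nuclei, and neighbouring ranges overlapped. Zfp423 had medians of 539 in lymphatic endothelial nuclei (3 libraries), 504 in adipocytes (424 in the same 3) and 357 in endothelial nuclei, and was lower, without overlap, in progenitors at 129.7. Cebpb had a median of 87.5 in mesothelial nuclei (5 libraries, all S075) and of 67.4 in adipocytes of all 9, but in adipocytes of the same 5 it was 123 (57.6 to 376), higher in place of lower, and the mesothelial level was the higher one in 2 of the 5. The adipocyte-derived estimate can run high: in epithelial-gated nuclei it exceeded the Pparg level counted in all 4 libraries.

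Compared per kilobase of gene, the median adipocyte level was 44.8 CPM per kb for Cebpb, 22.5 for Pparg, 22.2 for Cebpa and 15.6 for Ebf1. Ebf2 (4.17), Nr1h3 (3.64), Klf15 (3.64), Zfp423 (1.69) and Rxra (0.383) were lower on this per-length scale.

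Pparg encodes the central receptor of the cascade. Its level in adipocyte-gated nuclei was 1475 CPM in C, 2068 in H, 2518 in HH, 2899 in CCH and 2917 in HCH, and 4175 in CC, 3388 in CCC, 4106 in HC and 3328 in HHC. C was lowest, H and HH followed, and the 4 S019 libraries were highest. H was higher than C by a log2 ratio of 0.49 (0.41 to 0.56), short of the 1.5-fold used as the call, whereas HC differed from CC by -0.02 (-0.06 to 0.01), HHC from CCC by -0.03 (-0.07 to 0.02) and HCH from CCH by 0.01 (-0.04 to 0.06). HH was lower than CC by a log2 ratio of -0.73 (-0.78 to -0.68), and higher than C of its own set by 0.77 (0.72 to 0.82). The sign of the long obesity difference therefore turned with the control library. Relative to genes of like length, HH against CC was at -0.37, no longer past 1.5-fold, and H against C was at 0.59, just past it.

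Rxra encodes the shared heterodimer partner. Its adipocyte level was 33.1 CPM in C, 23.2 in H, 17.9 in HH, 28.7 in CCH and 23.4 in HCH, and 129 in CC, 57.4 in CCC, 147 in HC and 58.3 in HHC. All 4 S019 libraries were above all 5 S075 libraries, and CC and HC were the highest. Within sets, the log2 ratio was -0.51 (-1.28 to 0.17) for H against C, 0.19 (0.02 to 0.37) for HC against CC, 0.02 (-0.37 to 0.40) for HHC against CCC and -0.29 (-0.92 to 0.30) for HCH against CCH, and none passed 1.5-fold. HH against CC, which crosses the sets, gave -2.85 (-3.41 to -2.34), and HH against C gave -0.89 (-1.46 to -0.37).

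Nr1h3, the gene for LXRα, was the flattest member in adipocytes. Its level was 65.6 CPM in C, 87.6 in H, 79.2 in HH, 64.9 in CCH and 68.1 in HCH, and 68.4 in CC, 81.1 in CCC, 65.2 in HC and 73.5 in HHC, 1.35-fold from the lowest library to the highest. H was above C by a log2 ratio of 0.42 (0.04 to 0.78), and the intervals of the other 4 comparisons held 0. No comparison passed 1.5-fold.

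Klf15 was low in H, HCH and C alike. Its adipocyte level was 28.9 CPM in C, 30.9 in H, 37.4 in HH, 50.6 in CCH and 33.7 in HCH, and 61.9 in CC, 57.4 in CCC, 53.5 in HC and 46.1 in HHC. The log2 ratio of H against C was 0.10 (-0.57 to 0.69), and that of HCH against CCH was -0.59 (-1.09 to -0.11). After weight loss it was -0.21 (-0.49 to 0.06) for HC against CC and -0.32 (-0.75 to 0.09) for HHC against CCC, both with intervals that held 0. HH against CC was -0.73 (-1.13 to -0.34), and against C of its own set 0.37 (-0.03 to 0.75).

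**Figure D2:**
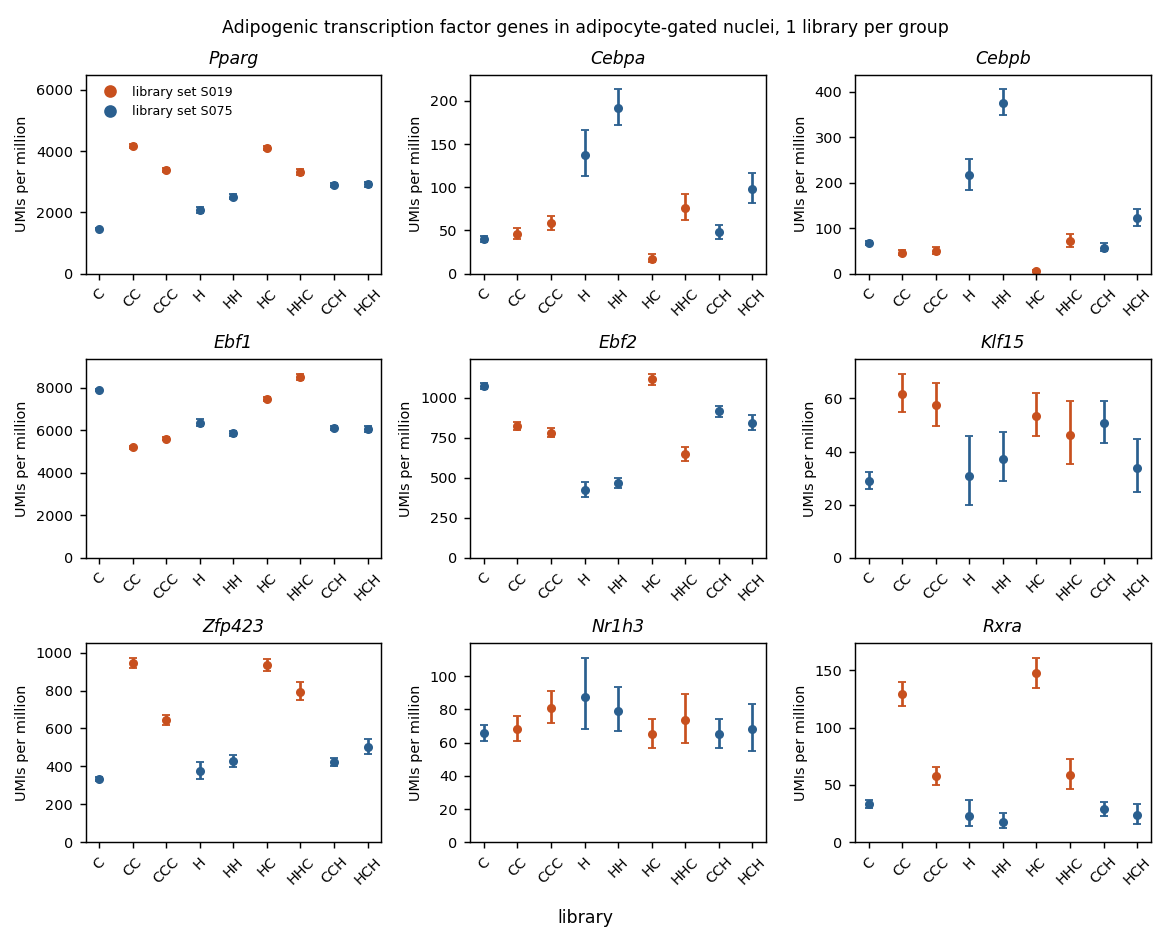
Level of each of the 9 genes in adipocyte-gated nuclei (vertical axis, CPM, from 0) in each library (horizontal axis), with exact Poisson 95% counting intervals and colour for the library set. Cebpa and Cebpb peak in H and HH, Ebf2 is lowest there, and Pparg, Zfp423 and Rxra are higher in all 4 S019 libraries than in all 5 S075 libraries.

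Ebf2, a factor of committed preadipocytes and of brown and beige fat, was lowest in the adipocytes of H and HH. Its level was 1075 CPM in C, 425 in H, 465 in HH, 914 in CCH and 844 in HCH, and 823 in CC, 782 in CCC, 1113 in HC and 648 in HHC. H and HH lay below the other 7 libraries. H was 2.53-fold lower than C, a log2 ratio of -1.34 (-1.50 to -1.18), and HH was 1.77-fold lower than CC, -0.82 (-0.93 to -0.72). After weight loss HC was above CC by 0.44 (0.37 to 0.50) and HHC below CCC by -0.27 (-0.38 to -0.16), and HCH differed from CCH by -0.12 (-0.21 to -0.02). None of these last 3 reached 1.5-fold.

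Ebf1 was the most abundant member in adipocytes in CPM and varied little. Its level was 7895 CPM in C, 6368 in H, 5857 in HH, 6109 in CCH and 6058 in HCH, and 5206 in CC, 5609 in CCC, 7459 in HC and 8522 in HHC. HHC was highest, C and HC followed, and CC was lowest. HHC was 1.52-fold above CCC, a log2 ratio of 0.60 (0.57 to 0.64), and HC was above CC by 0.52 (0.49 to 0.54), short of the call. The call of HHC was lost without the upper limit on detected genes and with a stricter gate. It was kept with trimmed-mean scaling (0.69) and relative to genes of like length (0.79). On the same scales HC against CC was at 0.66 and 0.46, the first past 1.5-fold. HH was above CC by 0.17 (0.14 to 0.20), at 0.07 and 0.70 on these scales, and below C by -0.43 (-0.46 to -0.40). H was below C by -0.31 (-0.35 to -0.27), and HCH differed from CCH by -0.01 (-0.05 to 0.02).

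Zfp423, a commitment factor that also holds back the thermogenic programme in white adipocytes, was at 332 CPM in C, 378 in H, 426 in HH, 424 in CCH and 504 in HCH, and 945 in CC, 645 in CCC, 934 in HC and 795 in HHC in adipocytes. As for Pparg and Rxra, all 4 S019 libraries were above all 5 S075 libraries. Within sets the log2 ratio was 0.19 (0.01 to 0.36) for H against C, -0.02 (-0.08 to 0.05) for HC against CC, 0.30 (0.20 to 0.41) for HHC against CCC and 0.25 (0.11 to 0.38) for HCH against CCH. HH against CC was -1.15 (-1.26 to -1.04) and, against C of its own set, 0.36 (0.25 to 0.47).

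Cebpa and Cebpb had the widest range of the 9 members. The adipocyte level of Cebpa, which sustains the mature adipocyte, was 40.2 CPM in C, 138 in H, 192 in HH, 47.9 in CCH and 98.1 in HCH, and 46.2 in CC, 58.6 in CCC, 17.3 in HC and 76.3 in HHC. That of Cebpb, the early factor, was 67.4 CPM in C, 216 in H, 376 in HH, 57.6 in CCH and 123 in HCH, and 46 in CC, 50.4 in CCC, 5.68 in HC and 71.3 in HHC. Both were highest in HH, then H, then HCH, and both were lowest in HC. From the lowest library to the highest they spanned 11.1-fold and 66.2-fold. For Cebpa the log2 ratio was 1.78 (1.46 to 2.08) for H against C, 2.05 (1.80 to 2.30) for HH against CC and 1.03 (0.69 to 1.38) for HCH against CCH. For Cebpb the same comparisons gave 1.68 (1.43 to 1.92), 3.03 (2.81 to 3.26) and 1.09 (0.78 to 1.40). Both genes were thus higher in H, HH and HCH than in the control of each. HC was below CC, by -1.42 (-1.86 to -0.99) for Cebpa and -3.02 (-3.78 to -2.34) for Cebpb, whereas HHC was above CCC by 0.38 (0.03 to 0.73) and 0.50 (0.13 to 0.86), under 1.5-fold. RNA from macrophages, estimated from the macrophage markers in adipocyte-gated nuclei, came to between 2.66% (HH) and 12% (CC) of the Cebpb UMIs.

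These differences moved with those of other genes without introns and of short genes with introns. The summed level of all other single-exon genes in adipocyte-gated nuclei was 4008 CPM in C, 12839.8 in H, 14088 in HH, 4595 in CCH and 9229.6 in HCH, and 4571 in CC, 4771 in CCC, 2153 in HC and 4530.4 in HHC. As for Cebpa and Cebpb, HH, H and HCH were the highest and HC was the lowest. Genes under 5 kb with introns followed the same order at both ends, with a summed 10047 CPM in HC, 14228 in C, 34940.2 in HCH, 41975 in H and 48479 in HH. Genes over 200 kb ran the other way between HC (267419) and HH (186338). The median log2 ratio of single-exon genes was 1.56 for H against C (173 genes), 1.80 for HH against CC, -0.72 for HC against CC and 0.89 for HCH against CCH, beside 0.28, 0.11, -0.13 and 0.08 for all genes with at least 30 UMIs. In HHC against CCC, where Cebpa and Cebpb were at 0.38 and 0.50, the single-exon median was -0.08 (120 genes) and did not move with them. The shortest length class of all genes had medians of 1.34 in H against C and -0.67 in HC against CC. Set relative to genes of like structure (single-exon genes for these 2, genes of like length for the others), Cebpa was at 0.22, 0.25, -0.69, 0.46 and 0.14 in H, HH, HC, HHC and HCH against their controls. Cebpb was at 0.12, 1.23, -2.30, 0.58 and 0.20. On that relative scale only HH and HC for Cebpb and HC for Cebpa were past 1.5-fold. Ebf2 in H against C was at -1.03 relative to genes of like length, and in HH against CC at -0.30.

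**Figure D3:**
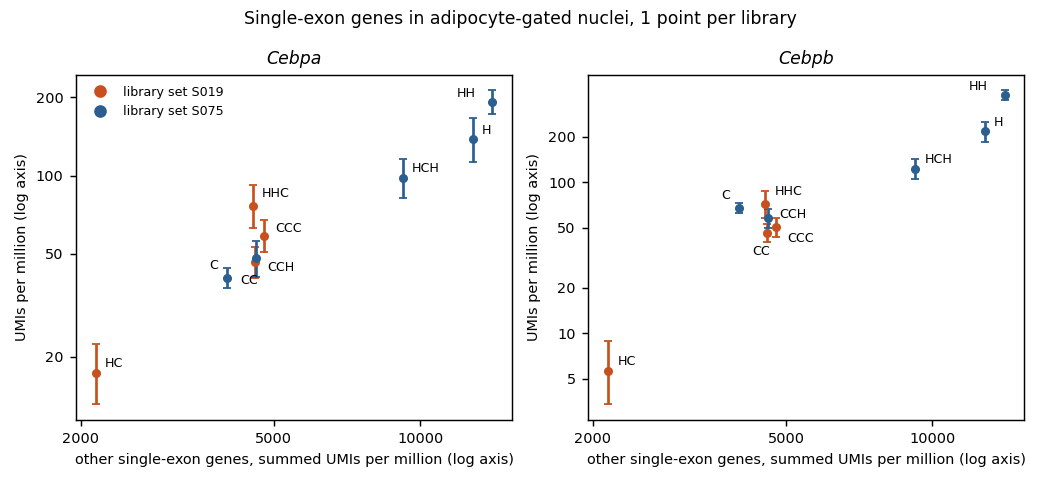
Level of Cebpa (left) and Cebpb (right) against the summed level of all other single-exon genes in adipocyte-gated nuclei, 1 point per library, all axes logarithmic in CPM, with exact Poisson 95% counting intervals on the vertical axis. HC is lowest and HH highest on every axis, and H and HCH lie between HH and the other libraries.

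The call used below is a difference of at least 1.5-fold in a gene with at least 30 UMIs over both libraries. For H against C in adipocytes, 2 members of 9 were called higher (Cebpa, Cebpb), where 37.9% of all genes were, and 1 was called lower (Ebf2), where 15.5% were. For HH against CC, 2 were called higher (Cebpa, Cebpb; background 32.4%) and 5 lower (Pparg, Ebf2, Klf15, Zfp423, Rxra; background 21.9%). HC against CC gave 0 higher (background 7.64%) and 2 lower (Cebpa, Cebpb; 21.8%), HHC against CCC gave 1 higher (Ebf1; 9.19%) and 0 lower (20.4%), and HCH against CCH gave 2 higher (Cebpa, Cebpb; 22.5%) and 1 lower (Klf15; 7.65%). With 9 members these counts are near the background, apart from the 5 lower in HH against CC, of which 3 are the members that split by library set.

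**Figure D4:**
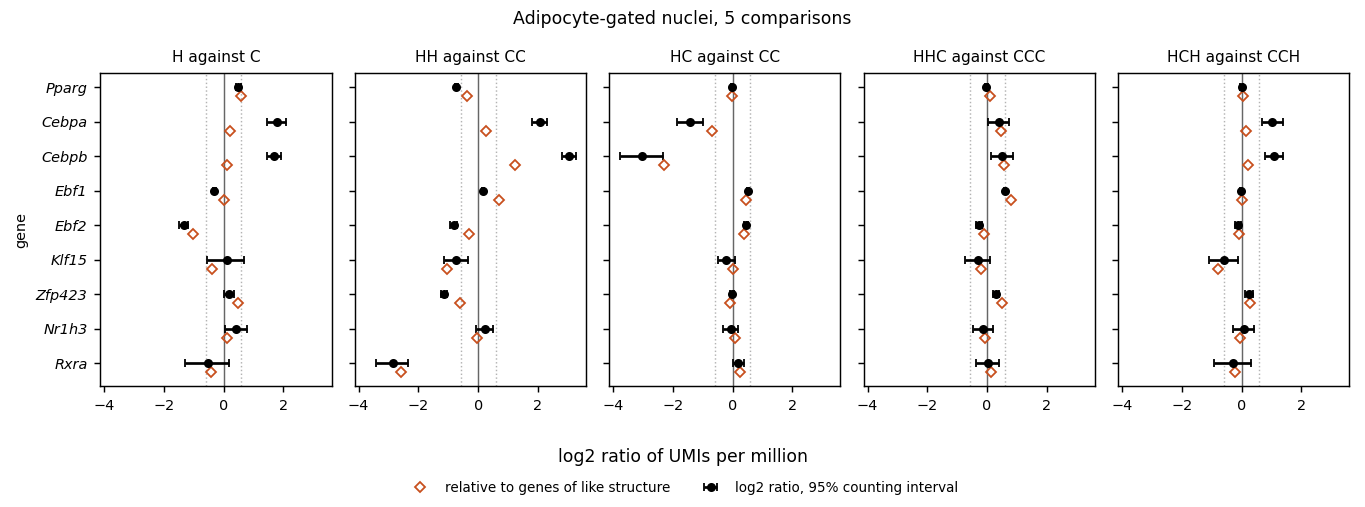
Log2 ratio of CPM in adipocyte-gated nuclei for the 9 genes (vertical axis) in 5 comparisons (panels). Filled points carry 95% counting intervals, open diamonds are relative to genes of like structure, and dotted lines mark 1.5-fold. For Cebpa and Cebpb most diamonds lie nearer to 0 than the points, and Ebf2 in H against C is low on both measures.

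In counted levels, the split by library set was not limited to adipocytes. Rxra was higher in all 4 S019 libraries than in all 5 S075 libraries in all 4 classes with every library: 57.4 to 147 CPM beside 17.9 to 33.1 in adipocytes, 31.3 to 56.3 beside 13 to 15 in progenitors, 42.3 to 98.2 beside 13.7 to 32.6 in macrophages and 41.8 to 67.2 beside 11.8 to 21.5 in endothelial nuclei. Of all genes, 7.76% stood apart in this way in adipocytes, 5.77% in progenitors, 4.2% in macrophages and 4.57% in endothelial nuclei. Pparg (3328 to 4175 beside 1475 to 2917) and Zfp423 (645 to 945 beside 332 to 504) did so in adipocytes. In progenitors Pparg, Ebf2, Klf15, Zfp423 and Rxra did, in macrophages Zfp423 and Rxra, and in endothelial nuclei Ebf2 and Rxra. Macrophage Zfp423 was below the adipocyte-derived estimate in all 9 libraries, at -89.3 to -7.19 CPM beyond it. For Pparg in progenitors, 1.9 UMIs in CC and -93.7 in CCC lay beyond the estimate, beside 399 in C and 951 in H. The progenitor split of Pparg thus did not hold beyond the estimate. Nor did those of Klf15 and Zfp423 in progenitors, where HH was above CC after subtraction, by log2 ratios of 0.75 and 0.86. The Klf15 value rests on 5.3 of 26 UMIs left in CC. Whether the other splits hold beyond the estimate was not tested. No member was lower in all S019 libraries than in all S075 libraries, where 5.02% of all genes were in adipocytes, 5.56% in progenitors, 4.05% in macrophages and 4.66% in endothelial nuclei. The set goes with the diet at collection, chow in all 4 S019 libraries and HFD in 4 of the 5 S075 libraries. Only C was on chow in S075, by the paper a low-fat chow, where the S019 libraries had standard chow. Set and diet therefore cannot be told apart. Among the libraries kept on chow, CC was above C in adipocytes by log2 ratios of 1.5 for Pparg, 1.51 for Zfp423 and 1.96 for Rxra, and these libraries differ in set and age, which cannot be told apart.

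In progenitor-gated nuclei, the class that holds adipocyte precursors, Cebpb was called higher in H against C (1 of 9 members, background 32.4%) and Klf15 lower (1, background 10.9%). HH against CC gave 0 higher (38.3%) and 5 lower, Pparg, Cebpa, Klf15, Zfp423 and Rxra (12.4%). HC against CC gave 0 higher (12.8%) and 3 lower, Pparg, Cebpa and Cebpb (13.7%), HHC against CCC gave 0 higher (17.6%) and 1 lower, Klf15 (9.62%), and HCH against CCH gave 2 higher, Cebpa and Cebpb (24.9%), and 0 lower (4.5%). Against C of its own set, HH had 1 member past 1.5-fold. The progenitors of CC carried 2994 CPM of adipocyte markers beside 365 in HH, and with adipocyte-derived RNA subtracted the HH against CC ratio turned from -1.35 to 0.75 for Klf15 and from -1.10 to 0.86 for Zfp423, while Pparg had no value left. The other 2 calls stayed past 1.5-fold, Cebpa at -2.15 in place of -1.81 and Rxra at -1.04 in place of -1.91. The subtraction also put Pparg (1.17) and Zfp423 (0.69) past 1.5-fold in H against C, and Ebf1 (0.70), Klf15 (1.95) and Zfp423 (1.32) in HC against CC, where Pparg had no value left. Subtracted values have no interval, and those of Klf15 against CC rest on 5.3 of 26 UMIs left in CC. Cebpb in H against C, at 0.72, was at -0.26 relative to single-exon genes and at 0.54 with trimmed-mean (TMM) scaling, and the calls of Cebpa and Cebpb in HCH against CCH were at 0.15 and 0.11 relative to single-exon genes.

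Ebf2, the member most abundant in progenitors relative to other classes, was at 2348 CPM in C, 1929 in H, 2074 in HH, 2374 in CCH and 2344 in HCH, and 2433 in CC, 2519 in CCC, 3351 in HC and 2729.7 in HHC. The 4 S019 libraries were highest, and no comparison of it reached 1.5-fold: H against C was -0.28 (-0.32 to -0.25), HC against CC 0.46 (0.41 to 0.51) and HHC against CCC 0.12 (0.07 to 0.16). Pparg in progenitors was at 163 CPM in C, 197 in H, 159 in HH, 123 in CCH and 149 in HCH, and 856 in CC, 295 in CCC, 519 in HC and 250.2 in HHC, with adipocyte-derived estimates of 88.5 CPM in C, 29.6 in H, 53.9 in HH, 125 in CCH and 111 in HCH, and 855 in CC, 348 in CCC, 312 in HC and 190.1 in HHC. CC was highest on both measures, where the counted level and the estimate were nearly equal, and in CCC and CCH the counted level was below the estimate.

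Progenitors were divided by further markers into fibro-inflammatory progenitors and committed preadipocytes, and the committed share ran from 21.6% (CCH) to 60.7% (HC) of the class. Within each of the 9 libraries Ebf2 was lower in committed than in fibro-inflammatory nuclei, with log2 ratios of -0.78 to -0.43 and intervals below 0 in all 9. Pparg was higher in committed nuclei in all 9 libraries (0.03 to 2.01), with an interval above 0 in 8. Ebf1 was lower in committed nuclei in 8 of 9. Between groups, committed nuclei of H had more Zfp423 than those of C by a log2 ratio of 0.73 (0.45 to 1.02), and those of HHC more than those of CCC by 0.61 (0.33 to 0.91). Committed nuclei of HH had less than those of CC, at -0.78 (-1.05 to -0.51), and the intervals of HC against CC and HCH against CCH held 0. Over all progenitors, subtracting adipocyte-derived RNA turned the HH against CC ratio of Zfp423 from -1.10 to 0.86. No subtracted value is given for either progenitor state. In fibro-inflammatory nuclei the Zfp423 ratio was 0.09 (-0.20 to 0.37) for H against C and 0.09 (-0.13 to 0.31) for HCH against CCH, -0.26 (-0.65 to 0.13) for HC and -1.35 (-1.68 to -1.01) for HH against CC, and -0.42 (-0.75 to -0.08) for HHC against CCC, so that HHC was on the other side of 0 in this state.

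In macrophage-gated nuclei the nuclear receptor genes Pparg and Nr1h3 were higher, and Rxra was lower, in H, HHC and HCH than in their controls. Pparg, which in macrophages regulates lipid handling, was at 141 CPM in C, 364 in H, 420.5 in HH, 185 in CCH and 518 in HCH, and 862 in CC, 296 in CCC, 707 in HC and 530.2 in HHC. The adipocyte-derived estimates were 141 CPM in C, 48.8 in H, 80.6 in HH, 225 in CCH and 149 in HCH, and 907 in CC, 359.9 in CCC, 353 in HC and 217 in HHC. In the libraries never on HFD or on it for 4 weeks only, C, CC, CCC and CCH, the level was at or below the estimate, and in H, HH, HC, HHC and HCH it was above it. CC, with the most adipocyte RNA, had the highest counted level. The log2 ratio of the counted levels was 1.37 (1.23 to 1.51) for H against C, 0.84 (0.66 to 1.03) for HHC against CCC and 1.49 (1.39 to 1.58) for HCH against CCH, but -0.29 (-0.40 to -0.17) for HC against CC and -1.04 (-1.14 to -0.93) for HH against CC, where CC is the control. Against C, HH gave 1.58 (1.44 to 1.72).

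Nr1h3, whose product senses cholesterol load, was at 16.3 CPM in C, 46 in H, 42.6 in HH, 15 in CCH and 33.5 in HCH, and 30.0 in CC, 18.2 in CCC, 41.3 in HC and 54.7 in HHC in macrophages. H, HH, HC, HHC and HCH were above the other 4 libraries, and C and CCH were the lowest. The log2 ratio was 1.5 (1.10 to 1.93) for H against C, 1.59 (0.85 to 2.44) for HHC against CCC and 1.16 (0.81 to 1.52) for HCH against CCH. HC against CC gave 0.46 (-0.14 to 1.11) and HH against CC 0.51 (-0.03 to 1.10), both intervals holding 0. With the adipocyte-derived estimate subtracted, Nr1h3 was past 1.5-fold in all 5 comparisons, at 1.24 for HC and 1.41 for HH against CC, 2.38 for HHC against CCC, 2.14 for H against C and 1.59 for HCH against CCH. These subtracted values have no interval. Those with CC or CCC as control rest on 14.6 of 29 UMIs left in CC and 7.9 of 15 in CCC, and the estimate can run high. Rxra was at 29.6 CPM in C, 13.7 in H, 17.2 in HH, 32.6 in CCH and 17.7 in HCH, and 98.2 in CC, 69.1 in CCC, 73.8 in HC and 42.3 in HHC and went the other way, with log2 ratios of -1.10 (-1.48 to -0.73), -0.71 (-1.11 to -0.28) and -0.88 (-1.19 to -0.57) for H against C, HHC against CCC and HCH against CCH.

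The make-up of the macrophage class differed between these libraries. Lipid-associated macrophages (LAMs), gated by markers of their own, were 1.25% of macrophage-gated nuclei in C, 2.65% in CCH, 0.735% in CC and 3.59% in CCC, beside 79.6% in H, 74.2% in HH, 43.4% in HCH, 56.5% in HC and 83.7% in HHC. Perivascular macrophages (PVMs) were gated in the same way, and 5 libraries (H, HH, HC, HHC and HCH) held at least 50 nuclei of both. Within each of the 5, Pparg was higher in LAMs, 425 to 817 CPM beside 70.9 to 469.9 in PVMs, and Nr1h3 was higher in LAMs, 49.1 to 60.5 beside 14.2 to 20.7. The log2 ratios of LAMs to PVMs were 0.80 to 2.58 for Pparg and 1.55 to 1.79 for Nr1h3, all 5 intervals above 0 for each. Cebpa was also higher in LAMs in all 5 and Cebpb in 4 of 5. Rxra was lower in LAMs in all 5 libraries, by log2 ratios of -1.68 to -0.55, with 4 intervals below 0.

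**Figure D5:**
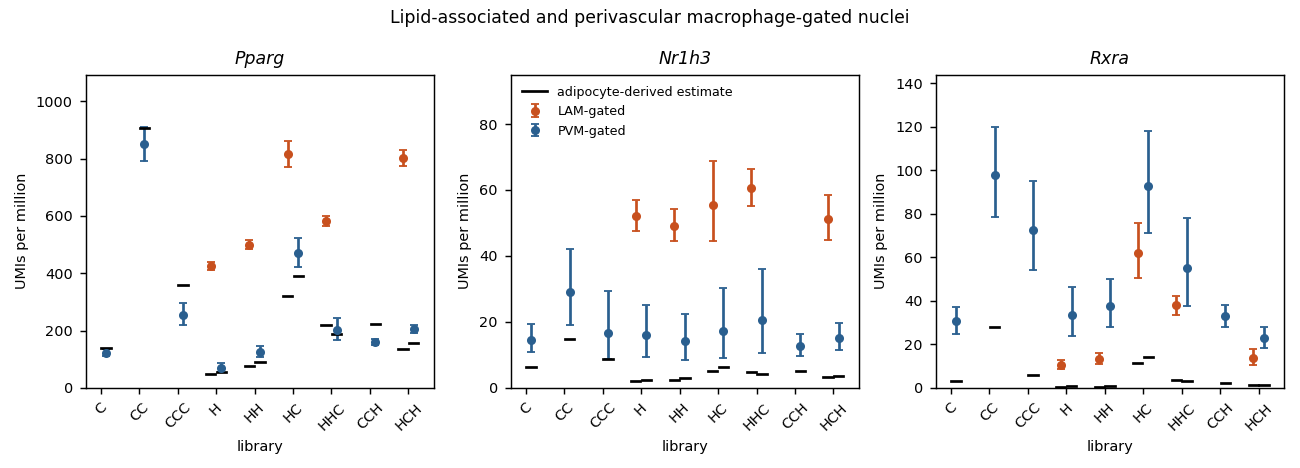
Level of Pparg, Nr1h3 and Rxra (CPM, from 0) in LAM-gated and PVM-gated nuclei of each library with at least 50 such nuclei, with exact Poisson 95% counting intervals and the adipocyte-derived estimate as a short line. In all 5 libraries with both gates, Pparg and Nr1h3 are higher and Rxra is lower in LAMs than in PVMs.

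Among PVMs alone, H against C gave log2 ratios of -0.79 (-1.16 to -0.44) for Pparg, 0.12 (-0.75 to 0.93) for Nr1h3 and 0.14 (-0.44 to 0.69) for Rxra, beside 1.37, 1.5 and -1.10 over all macrophages. HCH against CCH gave 0.36 (0.22 to 0.50), 0.25 (-0.28 to 0.78) and -0.53 (-0.91 to -0.15) for the same genes, so that Pparg was still higher and Rxra still lower in the PVMs of HCH, and HHC against CCC gave -0.32 (-0.67 to 0.02), 0.31 (-0.97 to 1.59) and -0.39 (-1.07 to 0.27). The PVM level of Pparg was below the adipocyte-derived estimate in C, CC, CCC and CCH. LAMs could not be compared with those of chow-fed controls, since C held 17 LAM-gated nuclei, CC 2 and CCC 13, and CCH held 43. How much of the differences over all macrophages goes with the LAM share was not tested beyond these values. In counts, 4 of 8 members with 30 UMIs were called higher in H against C (background 39.3%) and 4 lower (16.3%), 1 higher (40.7%) and 5 lower (18.2%) of 8 in HH against CC, and 0 higher (17.9%) and 4 lower (17.2%) of 8 in HC against CC. HHC against CCC gave 2 higher (26%) and 3 lower (13.9%) of 9, and HCH against CCH gave 4 higher (29.2%) and 5 lower (7.98%) of 9. The shares called lower exceed the background in every comparison, and they include Ebf1 (4 comparisons) and Zfp423 (5). The adipocyte markers were also lower in the macrophages of the first library of each comparison, and their part in these calls was not tested. Subtracting the adipocyte-derived estimate left no value for Pparg, Ebf1 or Zfp423 in any of these comparisons, because at most 3 UMIs remained in 1 library or both. Of the members with a value, Cebpa, Cebpb, Nr1h3 and Rxra kept their calls in H against C and HCH against CCH under this subtraction, and Rxra was at -1.0, -2.08, -0.71 and -0.87 in H, HH, HHC and HCH against their controls. Relative to single-exon genes, Cebpa and Cebpb in H against C were at -0.42 and -0.71, lower in place of higher. On the same scale they were at 0.07 and -0.27 in HCH against CCH, so that neither was past 1.5-fold and Cebpb turned, and at -1.23 and -0.72 in HH against CC, both lower.

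In endothelial-gated nuclei fewer members were deep enough to compare. H against C gave 1 higher of 7, Rxra (background 21.9%), and 2 lower, Ebf2 and Nr1h3 (15.3%). Rxra rested on 10 UMIs in H and 22 in C (log2 ratio 0.79, -0.46 to 1.92) and Nr1h3 on 5 and 31 (-0.71, -2.43 to 0.67), so that both intervals held 0. HH against CC gave 0 higher (26.5%) and 4 lower of 6, Pparg, Cebpb, Ebf2 and Rxra (15.5%), HC against CC gave 1 higher of 8, Ebf2 (15.1%), and 2 lower, Cebpa and Cebpb (15.2%), HHC against CCC gave 0 higher (15%) and 1 lower of 7, Ebf2 (12.7%), and HCH against CCH gave 2 higher of 8, Cebpa and Nr1h3 (19.4%), and 1 lower, Ebf2 (8.45%). Cebpa in HCH against CCH, with 23 and 19 UMIs, was at 0.82 (-0.12 to 1.78), an interval that held 0, and at 0.11 relative to single-exon genes. Nr1h3 was at 0.81 (0.13 to 1.49). CC endothelial nuclei carried 3422 CPM of adipocyte markers beside 479.5 in HH, and with adipocyte-derived RNA subtracted Pparg in HH against CC was at -0.50 in place of -1.48 and Rxra at -0.47 in place of -1.60, neither past 1.5-fold, while Cebpb and Ebf2 had no value. Ebf2 had no value in H against C and HCH against CCH either, was at -0.37 in place of -0.83 in HHC against CCC, and at 3.29 in place of 0.88 in HC against CC. The value of 3.29 has no interval and rests on 12.4 of 94 UMIs left in CC. Pparg in endothelial nuclei was at 949 CPM in C, 1089 in H, 641 in HH, 1126 in CCH and 1251 in HCH, and 1784 in CC, 730.1 in CCC, 1235 in HC and 624 in HHC. Of these counted levels CC was highest, H, CCH and HCH, all on HFD, were above C, and HH was below it. Beyond the adipocyte-derived estimate the levels were 836 CPM in C, 1046 in H, 570.4 in HH, 917 in CCH and 1068 in HCH, and 807 in CC, 167 in CCC, 785 in HC and 326 in HHC. On that scale CC was below C, and H, CCH and HCH were above C, while HHC against CCC was at 0.96 in place of -0.23. In counted levels H against C differed by a log2 ratio of 0.20 (0.06 to 0.34) and HCH against CCH by 0.15 (0.04 to 0.26), neither past 1.5-fold.

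The wider pathway was described by lists of related genes in adipocyte-gated nuclei, where the backgrounds are those given above. In H against C, 3 of 14 other pro-adipogenic transcription factors were higher and 5 lower (median log2 ratio -0.32, all genes 0.28), among them Prdm16 at 2.66 and Tfe3 at 0.97, and Nfia at -1.16 and Mlxipl, the gene for the glucose-responsive factor ChREBP, at -0.96. Of 8 nuclear receptor relatives 3 were higher and 0 lower, led by Rxrb at 1.37 and Rara at 0.87. Of 14 co-regulators 0 were higher and 4 lower (median -0.35), with the coactivator genes Ncoa3 at -2.07 and Ncoa1 at -1.12. Of 12 anti-adipogenic regulators 2 were higher and 7 lower (median -0.83), including Gata3 with 0 of 776101 UMIs in H and 131 of 11654732 in C. Others of the list were Ddit3 at 1.90, Twist1 at 1.63 and Zfp521, the antagonist of EBF factors, at -3.49. The 26 target genes of PPARγ and C/EBPα outside the gate were mixed, with 12 higher and 7 lower (median 0.48): Gpd1 was at 2.64 and Nnat at 2.35, and Acaca, the gene of the first enzyme of fatty acid synthesis, was at -2.41 and Cfd, which encodes adipsin, at -1.96. Of 8 LXR targets 4 were higher and 2 lower (median 1.17), with Pltp at 3.27, Mylip at -1.74 and Srebf1 at -0.74. These list ratios were not set relative to gene length, and in H against C the shortest length class of all genes had a median log2 ratio of 1.34 and the longest class one of -0.31. The part of gene length in the list counts was not tested. HH against CC crosses the library sets, no list value with C as the control of HH is given, and differences from H against C were not tested. In HH against CC the nuclear receptor relatives had 2 of 8 higher and 4 lower (median -0.86, all genes 0.11). The other pro-adipogenic factors then gave 2 of 14 higher and 3 lower (-0.25), the co-regulators 0 of 14 and 6 (-0.36), the anti-adipogenic regulators 2 of 11 and 5 (-0.38) and the PPARγ and C/EBPα targets 9 of 25 and 7 (0.21).

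After weight loss from long obesity, HHC against CCC, no list had more genes past 1.5-fold than in H against C. Of all genes, 9.19% were higher and 20.4% lower, beside 37.9% and 15.5% in H against C, so fewer of all genes were past 1.5-fold too. Of the co-regulators 0 of 14 were past 1.5-fold in either direction (median 0.01, all genes -0.09). Of the other pro-adipogenic factors 1 of 14 was higher (Prdm16, 1.81) and 2 lower, of the nuclear receptor relatives 0 of 8 were higher and 3 lower, and of the anti-adipogenic regulators 1 of 10 was higher (Tcf7l2, 0.69) and 4 lower, among them Klf2 at -1.82 and Zfp521 at -1.81. Of the PPARγ and C/EBPα targets 5 of 26 were higher, led by Acaca (0.97) and Cidea (0.83), and 2 were lower, Pck1 (-0.69) and Retn (-0.64). Acaca was thus lower in H than in C and higher in HHC than in CCC. LXR targets gave 4 of 8 higher and 0 lower (median 0.54), with Smpdl3a at 2.35 and Apoe at 1.46. In the other weight-loss comparison, HC against CC, they gave 2 higher and 2 lower, with a median of -0.13 like that of all genes (-0.13). For the other lists in HC against CC, the counts higher and lower were 2 and 2 of 14 other pro-adipogenic factors, 0 and 2 of 8 nuclear receptor relatives, 2 and 1 of 14 co-regulators, 1 and 3 of 12 anti-adipogenic regulators and 6 and 5 of 26 PPARγ and C/EBPα targets. In HCH against CCH they were 2 and 2 of 14, 0 and 0 of 8, 0 and 2 of 14, 1 and 2 of 9 and 6 and 3 of 25 in the same order of lists. For LXR targets, HH against CC gave 4 higher and 1 lower (median 0.78, all genes 0.11) and HCH against CCH 5 and 0 (0.71, all genes 0.08). In macrophages the same 8 LXR targets gave 4 higher and 1 lower in H, 4 and 1 in HH, 4 and 0 in HCH, 5 and 0 in HHC and 3 and 1 in HC against their controls, where 39.3%, 40.7%, 29.2%, 26% and 17.9% of all genes were higher. With TMM scaling 3 were higher in HHC and 3 in HCH. Progenitors gave 4 higher and 1 lower in H, HH and HHC, 2 and 1 in HC, and 5 and 0 in HCH. Endothelial nuclei gave 4 and 1 of 8 in H and in HCH and 3 and 1 of 8 in HH. In HHC they gave 4 and 0 of 7, and in HC 1 and 1 of 7. The backgrounds of these classes are given above. Macrophages also express these genes, and the level expected in adipocyte-gated nuclei from macrophage RNA was estimated. Apoe was at 232 CPM beside an estimate of 27.8 in CCC and at 639 beside 103 in HHC. Pltp in C was at 10.3 beside 12.7, below its estimate, and in H at 99.2 beside 41.8.

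The genes most like each member were ranked by Pearson correlation of log2(CPM + 10) over 64 sums of 1 class in 1 library, among 13726 genes, as a description over points that share libraries and depth. For Ebf2 they were Bmper (0.95), Scn7a (0.94) and Adamts12 (0.94), of which Bmper was used as a marker of committed progenitors. For Klf15 they were Pcx (0.89), Nrg4 (0.88) and Ghr (0.87), and for Zfp423 Fign (0.92) and Ebf3 (0.91), Ebf3 being another gene of the EBF family. For Pparg they were Sybu (0.83) and Tmem182 (0.83), for Cebpa Trp53cor1 (0.85) and Cat (0.83), and for Ebf1 Pdzd2 (0.79). Abca1, the cholesterol exporter and a target of LXR, was the gene most like Nr1h3 (0.79). The closest genes were less close for Cebpb, Gm17251 (0.68), and for Rxra, Gm45902 (0.77).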

How the data were processed

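Nuclei were isolated from frozen epididymal fat pooled over 5 mice and sequenced with 10x 3' chemistry. The authors aligned reads with Cell Ranger 6.1.2, introns included, and deposited UMI counts per gene and barcode, and they judged correction for free RNA unnecessary. The submitters' notes also name Seurat 4.1.0.

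Barcodes were kept if they had from 500 to 3000 genes and no more than 40000 UMIs. Doublets were removed with Scrublet in scanpy 1.11.5, at a rate of 0.8% per 1000 nuclei where its automatic threshold marked under 0.5% (CC, CCC, HC and HHC). A nucleus was assigned to a class by at least 3 of its markers, with a score above the class reference divided by 3 and no other class above 0.5 of that score. This rate-based gate was chosen after the class counts of a first gate were seen. LAMs, PVMs and progenitor states needed at least 2 UMIs of their markers and 2-fold the score of the paired state.

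Counts were summed per class and library and divided by the class total, leaving out mitochondrial genes and Malat1. Log2 ratios carry exact conditional 95% intervals, computed in Python 3.11.15 with scipy 1.17.1 and tested on simulated data. With 1 library per group no test was made. Alternatives were TMM factors (edgeR 4.0.16, R 4.3.3), no minimum of UMIs, no upper limit on genes, no doublet removal, a stricter gate, Leiden clusters (leidenalg 0.10.2), free RNA subtracted and other controls, and a comparison with genes of like structure was added after seeing the data. Gene models on GRCm38 matched 32158 of 32285 genes. All 9 members are named, and of each pathway list only the genes with the 2 largest and 2 smallest log2 ratios in H against C and HHC against CCC, with the nearest genes by correlation. The members and lists were chosen with earlier results of these data known.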

Additional observations from a re-analysis of the deposited data

Results flagged for a closer look

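Some members differed in opposite directions in a pair of comparisons of the same kind, each by at least 1.25-fold with a counting interval that left out 0. With 1 library per group, none of these differences between comparisons was tested. For short against long obesity, the adipocyte log2 ratio of Pparg was 0.49 in H against C and -0.73 in HH against CC, its macrophage ratio was 1.37 and -1.04, and the progenitor ratio of Zfp423 was 0.42 and -1.10. HH and CC lie in different library sets, and with adipocyte-derived RNA subtracted Zfp423 was higher in both comparisons, at 0.69 and 0.86. Against C of its own set, HH was higher in Pparg, at 0.77 in adipocytes and 1.58 in macrophages. In macrophages, 0.5 Pparg UMIs in C and -43 in CC lay beyond the adipocyte-derived estimate, beside 3485 in H and 3814 in HH. For weight loss after short against long obesity, the adipocyte ratio of Cebpa was -1.42 in HC against CC and 0.38 in HHC against CCC, and that of Cebpb was -3.02 and 0.50. The summed level of single-exon genes was likewise lowest in HC. The endothelial ratio of Ebf2 was 0.88 in HC against CC and -0.83 in HHC against CCC, and 3.29 and -0.37 with adipocyte-derived RNA subtracted, the second under 1.5-fold. The value of 3.29 has no interval and rests on 12.4 of 94 UMIs left in CC.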

How the results depend on the processing

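No paired analysis was possible because each group is 1 library and no result comes from a test. Of 207 counts of members or list genes under an alternative, 170 stayed within 1.5 times the value reported and 37 did not. Of the log2 ratios, 933 stayed within the counting interval of the value reported, 279 moved outside it and 19 that were past 1.5-fold changed sign, and the cause was not tested. Depth limits the low members: H held 171 adipocyte nuclei, and Klf15 and Rxra have wide intervals there. TMM factors moved all adipocyte log2 ratios of H against C by -0.25, which brought Pparg to 0.24 and Nr1h3 to 0.17.

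With C as the control of HH, the log2 ratio was 0.77 for Pparg, 0.37 for Klf15 and 0.36 for Zfp423 in adipocytes, 0.28 for Cebpa, 0.29 for Zfp423 and 0.13 for Rxra in progenitors, 1.58 for Pparg in macrophages and 0.61 for Rxra in endothelial nuclei, and 1 member in place of 5 was past 1.5-fold in progenitors. With CCC as the control of HC, Pparg was at 0.81 in progenitors, and Ebf1 at 1.05 and Zfp423 at 0.40 in macrophages. With CC as the control of HHC, Pparg was at -0.70 in macrophages, and the members past 1.5-fold were 4 in place of 1 in adipocytes, 4 in place of 1 in progenitors, 9 in place of 5 in macrophages and 5 in place of 1 in endothelial nuclei.

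Relative to genes of like structure, Cebpb was at -0.26 in progenitors of H against C, and in macrophages Cebpa was at -0.42 and Cebpb at -0.71 in H against C, Cebpb at -0.72 in HH against CC and at -0.27 in HCH against CCH. The members past 1.5-fold in HCH against CCH were then 1 in place of 3 in adipocytes and 0 in place of 2 in progenitors, and in endothelial nuclei 5 in place of 3 in HC against CC and 2 in place of 1 in HHC against CCC.

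With free RNA subtracted, Klf15 was at 0.75 and Zfp423 at 0.86 in progenitors of HH against CC, Klf15 with 5.3 of 26 UMIs left in CC. The counts became 4 in place of 2 for H against C and 5 in place of 3 for HC against CC in progenitors. In macrophages they became 4 in place of 8 for H, 3 in place of 6 for HH, 2 in place of 5 for HHC and 4 in place of 9 for HCH, and in endothelial nuclei 1 in place of 3 for H, 2 in place of 4 for HH, 7 in place of 3 for HC and 3 in place of 1 for HHC. Members with at most 3 UMIs left by the subtraction gave no value, so lower counts include values that were lost, as for Pparg, Ebf1 and Zfp423 in macrophages.

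TMM factors gave 1 in place of 2 for H and 2 in place of 1 for HHC in progenitors, and in adipocytes 7 in place of 4 co-regulators for H, and 7 in place of 4 other pro-adipogenic factors and 1 in place of 0 nuclear receptor relatives for HCH. Without the upper limit on genes the count was 0 in place of 1 for HHC in adipocytes, 7 in place of 4 for HC in macrophages, and 8 in place of 4 for HH, 5 in place of 3 for HC and 2 in place of 1 for HHC in endothelial nuclei. The stricter gate gave 0 in place of 1 for HHC in adipocytes and in endothelial nuclei, and 1 in place of 3 for H in endothelial nuclei. There, clusters of each library gave 1 in place of 3 for H and 4 in place of 1 for HHC, and no minimum of UMIs gave 5 in place of 3 for H, 7 in place of 4 for HH and 2 in place of 1 for HHC. Leaving doublets in moved none of the counts by 1.5 times.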
